A study of Mus musculus with 2 samples.

Results

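The glucocorticoid receptor gene Nr3c1, the hormone-activating enzyme gene Hsd11b1 and 6 genes that the receptor activates (Sgk1, Klf9, Tsc22d3, Fkbp5, Errfi1 and Dusp1) were examined in mouse liver with and without Iah1. The 8 genes were taken by name, through probe sets that the platform annotation gives exactly 1 gene symbol, and make up 8 of 22180 genes measured. Each of the 8 had 1 probe set, and no probe set named any of them together with another gene.

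Liver came from male mice of 2 genotypes, Iah1-WT and Iah1-KO, the second carrying a whole-body loss of the esterase gene Iah1. All mice ate chow until 6 weeks of age and a high-fat diet for the next 12 weeks, so that every value below belongs to liver under high-fat feeding. They were housed singly and went 4 hours without food before tissue was taken, at a collection hour between 13 and 14. How the knockout allele was made and the strain of the mice are not given in the sources used here. RNA of 3 mice per genotype was combined on 1 Affymetrix whole-transcript array, which left 1 WT value and 1 KO value per gene, no spread between mice and no test of genotype. Higher and lower therefore refer to these pools alone.

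Glucocorticoids, corticosterone in mice, enter the cell and bind the receptor, which waits in the cytoplasm in a complex with heat shock chaperones and immunophilins. The hormone-bound receptor moves to the nucleus and binds glucocorticoid response elements, pairs of inverted half-sites, beside genes of gluconeogenesis, amino acid breakdown and the restraint of inflammation. In liver the enzyme made from Hsd11b1 regenerates corticosterone from its inactive form inside the cell. Circulating corticosterone follows a daily rhythm and rises with stress and fasting, and hormone was not among the measurements analysed here.

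The response element was looked for in the RefSeq promoter windows of the members (build GRCm38.p6), using the 250 bases before each annotated start. It was spelled as the half-site AGAACA, 3 free bases and the reverse complement TGTTCT, which reads the same on both strands, and up to 2 of its 12 fixed letters were allowed to differ. The table held 15 windows for 7 of the 8 genes, with 6 windows for Sgk1, 3 for Tsc22d3, 2 for Errfi1 and 1 each for Hsd11b1, Dusp1, Fkbp5 and Klf9. Sgk1 was the member gene with a match. The stretches that hold a match, and the half-site found before 1 start of Tsc22d3, are printed because they are the receptor's own recognition letters beside 2 of its targets. Capitals mark the element or half-site.

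Sgk1, exact element, chr10:21993679-21993737, plus strand: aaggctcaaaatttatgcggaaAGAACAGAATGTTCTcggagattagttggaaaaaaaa

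Sgk1, element with 2 letters different, chr10:21985899-21985957, plus strand: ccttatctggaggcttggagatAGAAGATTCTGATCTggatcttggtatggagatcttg

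Tsc22d3, half-site, chrX:140600680-140600729, minus strand: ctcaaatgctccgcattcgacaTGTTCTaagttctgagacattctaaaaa

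The exact element of Sgk1 began 189 and ended 175 bases before 1 of the 6 annotated starts of the gene. An exact element was present in 3 of the 32851 windows of the RefSeq table (0.00913%), and a match with at most 2 different letters in 511 (1.56%). The half-site alone was present in 16.1% of all windows and in 4 of the 15 member windows, 3 of Sgk1 and 1 of Tsc22d3. The window with the exact Sgk1 element counts here too, since both arms of the element are half-sites. None of these letters was found in the windows of Hsd11b1, Errfi1, Dusp1, Fkbp5 and Klf9, which says only that they are not in those 250 bases. A match is a description of the letters and not a measured binding site.

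The arrays as a whole were close. Both had a similar median over 41345 probe sets, 4.08 in WT and 4.10 in KO on the log2 scale of RMA, a method that removes background, gives the arrays equal distributions and condenses each probe set to 1 value. The targeted gene, Iah1, measured 8.59 in WT against 3.90 in KO. The intensity filter for the comparison across genes was 4.68, the median of all genes' higher values, and 11090 genes reached it. All 8 members lay above it in both arrays. The median difference of these 11090 genes, KO minus WT, was -0.02 on the log2 scale.

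None of the 8 genes differed by 1.5-fold (0.58 on the log2 scale) between the arrays. Among all genes above the filter, 1.47% were higher and 2.45% lower in KO by that size. Of the 8 differences, 7 lay below 0 (6 under each of 3 other scalings, which turn the sign of Nr3c1), against 55.7% of all genes above the filter, and the median of the 8 was -0.19. At a size of 0.32 on the log2 scale, a smaller one tried as an alternative, 3 members (Sgk1, Dusp1 and Klf9) were lower in KO and none was higher, beside 10.4% of all genes lower and 6.62% higher. The members share 2 pools of mice and are not replicates of each other.

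**Figure D1:**
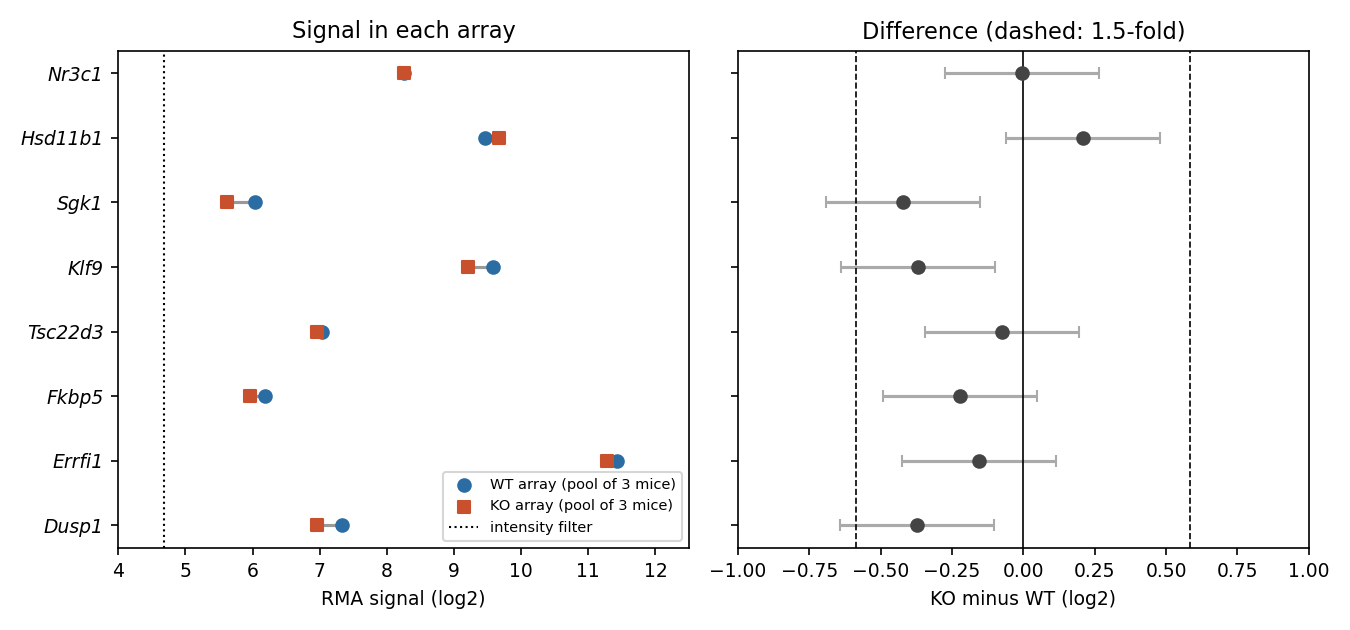
Left, the RMA signal (log2) of the 8 genes in the WT array (circles) and the KO array (squares), each a pool of 3 mice, with the intensity filter of 4.68 as a dotted line. Right, the difference KO minus WT (log2) with bars of 0.27, the SD of 1 probe set's difference over 604 genes, and dashed lines at 1.5-fold; Sgk1, Dusp1 and Klf9 are the 3 genes whose bars stay clear of 0.

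The receptor gene itself was nearly equal in the arrays. Nr3c1 measured 8.26 in WT and 8.25 in KO. This difference of -0.01 takes a positive sign (0.01 to 0.02) under each of 3 other scalings of the arrays. Nr3c2, which encodes the mineralocorticoid receptor, the other receptor for corticosterone, had 2 probe sets of unequal signal. One measured 6.56 in WT and 6.48 in KO, above the filter in both arrays, and the other 2.89 and 2.67, below it in both. They differed by -0.08 and -0.22, and their mean was 4.72 in WT and 4.57 in KO.

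Hsd11b1 was the 1 member above 0. Its signal was 9.46 in WT against 9.67 in KO, which is 0.21 on the log2 scale and 1.16-fold higher. H6pd, which makes the NADPH that lets this enzyme run toward corticosterone in the endoplasmic reticulum, lay the other way, at 9.31 in WT and 9.01 in KO (1.23-fold lower). Serpina6, the gene of the plasma globulin that carries corticosterone, was at 10.2 in WT and 10.4 in KO, and Akr1d1, a reductase that clears steroids, at 9.22 and 9.33.

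All 6 target genes lay below 0 in KO, beside 55.7% of all genes above the filter. Their median difference was -0.30, against -0.02 for those genes. The targets were chosen with earlier results of these data known, so their common direction is a description only. Sgk1, a kinase that promotes sodium and glucose transport, had the largest difference, with 6.04 in WT and 5.61 in KO (1.34-fold lower). Dusp1, a phosphatase that switches off MAP kinases, was at 7.33 in WT and 6.96 in KO (1.30-fold lower). Klf9, a Krüppel-like transcription factor, was at 9.58 in WT and 9.21 in KO (1.29-fold lower). These 3 stood at 74.7%, 77.2% and 77.4% of their WT signal.

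The other targets were closer to equal. Fkbp5, the immunophilin that lowers the receptor's affinity for hormone and is induced by it as a feedback brake, was at 6.18 in WT and 5.96 in KO (1.17-fold lower). Errfi1, an inhibitor of the epidermal growth factor (EGF) receptor, was at 11.4 in WT and 11.3 in KO (1.11-fold lower). Tsc22d3, which encodes the leucine zipper protein GILZ that restrains inflammatory transcription factors, was at 7.04 in WT and 6.96 in KO (1.05-fold lower).

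Probe sets that read the same gene give the one measure of error these arrays contain. Over 604 genes with several probe sets, the SD of 1 probe set's difference was 0.27 on the log2 scale. The differences of Sgk1, Dusp1 and Klf9 were 1.56, 1.39 and 1.37 times as large as this SD. Those of the other 5 genes did not reach it. A difference beyond this SD was not rare. At the larger size of 0.32 on the log2 scale, 10.4% of all genes above the filter were lower in KO and 6.62% higher. The same SD was applied to members of every signal level. This SD covers different probes and not mice, labelling or hybridisation, and with 1 probe set each the members have no such check of their own.

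The spread of differences depends on brightness, so each member was also placed among genes of similar signal. Klf9 lay in the brightest of 4 equal groups, where the SD of the differences was 0.16 and 68 of 2773 genes were as low as Klf9 or lower (2.45% of that group). Dusp1 lay in the third group, where the SD was 0.20 and 4.83% of genes were at least as low. Sgk1 lay in the second group, with an SD of 0.28 and 7.47% of genes at least as low. By this placing Klf9 and not Sgk1 stood farthest out among the targets.

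Hsd11b1 was in the brightest group, where 4.51% of genes were at least as high. Errfi1 had 14.2% of that group at least as low, Fkbp5 had 22.3% of the second group, Tsc22d3 42.1% of the third and Nr3c1 53.3% of the brightest. The last 2 sat in the middle of their groups. These shares describe the arrays and are no test of genotype.

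**Figure D2:**
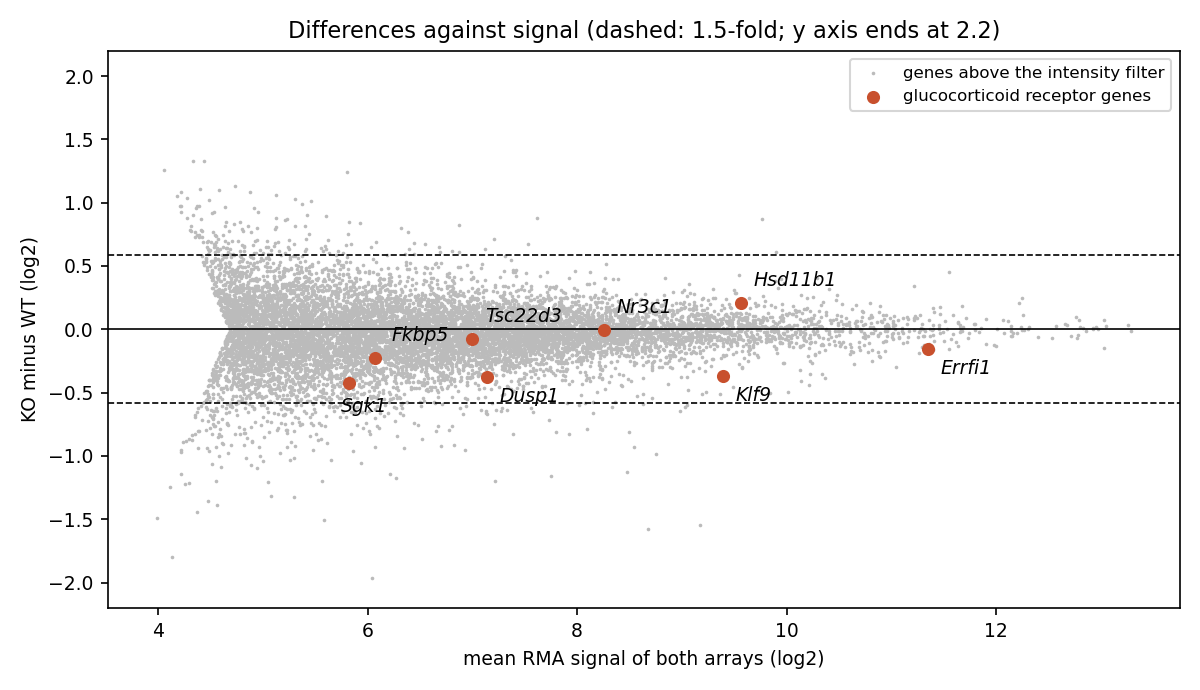
Difference KO minus WT (log2) against the mean RMA signal of both arrays (log2) for the 11090 genes above the intensity filter (grey), with the 8 genes marked and dashed lines at 1.5-fold; Iah1 at -4.69 is beyond the axis. The grey cloud narrows as signal grows, and Klf9 lies nearer to its lower edge than Fkbp5 or Tsc22d3.

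The rest of the pathway was read from 11 gene lists, counted over all measured members whether or not they passed the filter. Without a filter, 2.58% of 22180 genes were higher and 2.60% lower in KO at 1.5-fold, and 51.1% lay below 0. Of the list on receptors, hormone supply and clearance, 9 of 11 genes were measured and 1 was lower at 1.5-fold. That gene was Hsd3b5, a male-specific steroid dehydrogenase, at 7.59 in WT and 6.95 in KO. Akr1c6, a steroid dehydrogenase, was 1.16-fold lower. The list median was -0.01, and 0.01 once the median difference of all genes was subtracted.

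Chaperone genes of the receptor complex differed little and in both directions. Of 17 measured genes 6 lay below 0, against 51.1% of all genes, with a median of 0.05, and none reached 1.5-fold. Below 0 were Dnajb1 (-0.19) and Cdc37 (-0.13), and Ptges3 (-0.39), which was under the filter in both arrays, all 3 named after their values were seen. Stip1, which hands the receptor from the first chaperone to the next, was at 8.14 in WT and 8.42 in KO (1.22-fold higher), and the cyclophilin gene Ppid at 7.13 and 7.39 (1.20-fold higher). Hspa8, the constitutive chaperone gene, was 1.28-fold higher as the mean of 4 probe sets, whose differences ran from 0.18 to 0.44. Hspa1a was below the filter in WT (4.42) and at 4.87 in KO. Fkbp4, the immunophilin that competes with Fkbp5 for the receptor complex and favours its transport, was at 8.72 in WT and 8.91 in KO, on the opposite side of 0 from Fkbp5.

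Coregulator genes were close to equal as a group. Of 19 measured, 14 lay below 0, against 55.7% of all genes above the filter, which all 19 passed. A second quantile normalization left 11 of 19 below 0, and subtraction of the median difference and the loess fit each left 13. The list had a median of -0.04 (-0.01 to -0.02 under other scalings), and no member reached 1.5-fold. The differences farthest from 0 were those of Nrip1, a corepressor of nuclear receptors, at 7.03 in WT and 6.70 in KO (1.26-fold lower), the mediator subunit gene Med1 (1.19-fold lower), Trim28 (1.18-fold lower) and the deacetylase gene Sirt1 (1.17-fold lower).

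Other genes known to respond to glucocorticoids went both ways. Of 41 measured genes, 26 lay below 0 and 15 above, with a median of -0.06. Under each of 3 other scalings 24 lay below 0. Of all genes without a filter, 51.1% lay below 0, and 2.60% were lower and 2.58% higher at 1.5-fold. At 1.5-fold 4 were lower, Gadd45g, Mt2, Mt1 and Igfbp1, and 3 were higher, Bcl6, Fgf21 and Sult1e1. Igfbp1, Fgf21 and Sult1e1 were named after their values were seen, to complete these counts, and Sult1e1 was below the filter in both arrays. Gadd45g, a stress-inducible growth-arrest gene, was at 7.02 in WT and 5.06 in KO, and the metallothionein genes Mt2 and Mt1 at 9.47 and 9.04 in WT and 7.89 and 7.92 in KO. Bcl6, a transcriptional repressor, was at 7.18 in WT and 8.06 in KO (1.83-fold higher).

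The enzymes of gluconeogenesis and amino acid breakdown in that list, and the metabolic and regulatory genes set beside them, were also named after their values were seen. Tat, the tyrosine aminotransferase gene long used as a readout of the hormone in liver, was at 11.8 in both arrays, with a difference of 0.04. Pck1 and G6pc, of gluconeogenesis, differed by -0.07 and -0.18, and Tdo2, of tryptophan breakdown, by 0.06. The aminotransferase genes Got1 and Gpt2 differed by -0.27 and 0.08, and the urea cycle gene Cps1 by -0.13. Other metabolic genes of the list were farther from 0, with the glycogen-targeting subunit gene Ppp1r3c at -0.39, the ceramidase gene Acer2 at -0.35 and the insulin receptor substrate gene Irs2 at -0.31. Genes of the list also lay far on the other side, with Cry1 at 0.38, Cdkn1a at 0.29, Orm2 at 0.26 and Foxo1 at 0.23. These too were named after their values were seen. Of the 41 measured genes of the list, 26 lay below 0 and 15 above. Among the regulators, the clock gene Per1 differed by -0.15, and Zbtb16 was at 7.04 in both arrays. Many genes of the list also answer to insulin, cyclic AMP, the clock or cytokines, and no hormone level was analysed here to tell these inputs apart.

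**Figure D3:**
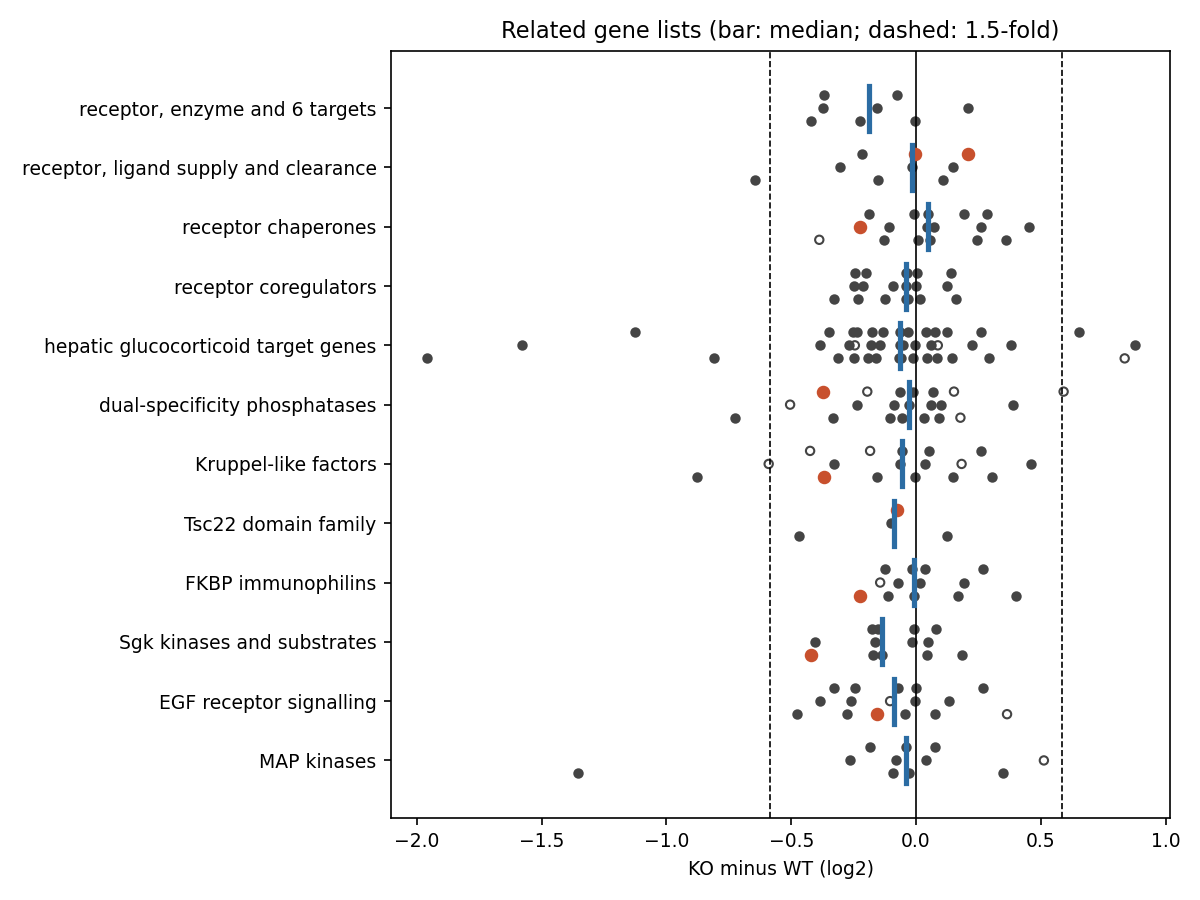
Difference KO minus WT (log2) for every measured gene of the 8 genes together and of 11 related lists, with list medians as vertical bars and dashed lines at 1.5-fold; filled points passed the intensity filter, open points did not, and orange points are the 8 genes within other lists. The medians of the lists lie between -0.14 and 0.05, and the 3 genes farthest to the left among those above the filter in both arrays are Gadd45g, Mt2 and Mt1.

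The relatives of the targets showed whether a difference was shared within its family. Among 21 dual-specificity phosphatases, 12 lay below 0, against 51.1% of all genes without a filter. Their median of -0.03 moved to 0.01 after a loess fit or a second quantile normalization. Dusp4 was lower by more than Dusp1, at 5.40 in WT and 4.68 in KO (1.65-fold lower), with the KO value just at the filter. Dusp23 was 1.18-fold and Dusp12 1.26-fold lower, the last as the mean of 2 probe sets at -0.49 and -0.18. Dusp28 was 1.31-fold higher, and Dusp26, below the filter in both arrays and named after its value was seen, was the 1 phosphatase higher at 1.5-fold, a count that fell to 0 under a second quantile normalization and after the loess fit. The MAP kinases that Dusp1 dephosphorylates include Mapk8, at 6.64 in WT and 6.38 in KO. Of 11 measured MAP kinase and MAP kinase kinase genes 7 lay below 0, against 51.1% of all genes, with a median of -0.04. Mapk13 was the 1 gene of that list past 1.5-fold, at 5.15 in WT and under the filter in the KO array, which bounds it at 1.39-fold lower or more. Mapk12 was 1.27-fold higher and Map2k4 1.14-fold lower.

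Klf9 was 1 of 10 Krüppel-like factor genes below 0 among 17 measured, against 51.1% of all genes, and the family median was -0.05. Klf5 and Klf4 were past 1.5-fold by RMA values, but both were below the filter in KO, Klf4 in WT as well. Klf5 was at 4.70 in WT, just above the filter, and its bound against the filter was 1.02-fold. Klf1 was likewise just above the filter in WT (4.71) and below it in KO (4.38), while Klf16 was 1.37-fold and Klf14 1.23-fold higher. Klf15, another factor that glucocorticoids induce in liver, was at 8.79 in WT and 8.84 in KO, a value sought out for its role and not by rule.

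In the small Tsc22 family, Tsc22d4 was at 5.32 in WT against 4.85 in KO (1.39-fold lower), a larger difference than that of Tsc22d3, while Tsc22d2 was 1.07-fold lower. Tsc22d1 was 1.09-fold higher as the mean of 2 probe sets, at 0.22 for the brighter and 0.02 for the other, which was below the filter in both arrays. Of 13 measured FKBP genes 7 lay below 0, against 51.1% of all genes, and Fkbp5 was the lowest. Fkbp11, an immunophilin of secretory cells, was 1.32-fold, Fkbp15 1.20-fold and Fkbpl 1.12-fold higher. The median of the family was -0.01, and 0.02 after the loess fit.

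Sgk3, a relative of Sgk1 that endosomal lipid activates, was lower to a similar degree, at 7.09 in WT and 6.69 in KO (1.32-fold lower), whereas Sgk2, the relative expressed in liver and kidney, was at 7.90 and 7.89. In the list of Sgk kinases, activators and substrates 9 of 13 genes lay below 0, against 55.7% of all genes above the filter, which all 13 passed. The count was 7 with the median difference subtracted, 8 after the loess fit or a second quantile normalization, and 10 with the brightest probe set. The list median was -0.14, with no gene past 1.5-fold. Scnn1a, a subunit of the sodium channel that Sgk1 keeps at the membrane, was 1.13-fold lower, Foxo3, a transcription factor that Sgk1 phosphorylates, 1.13-fold lower, and Mlst8, a subunit of the mTOR complexes, 1.14-fold higher.

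Errfi1 binds and inhibits the EGF receptor, and the receptor gene differed more than its inhibitor. Egfr was at 10.6 in WT and 10.2 in KO (1.30-fold lower). Its ligand genes Tgfa and Btc were 1.39-fold and 1.21-fold lower, and Erbb2 was at 4.72 in WT and under the filter in KO (4.39). The other measured ligand genes, named after their values were seen, went both ways. Hbegf was 1.09-fold higher. Below the filter in both arrays, Ereg was 1.29-fold higher and Egf 1.07-fold lower. Of 16 measured genes of this pathway 12 lay below 0, against 51.1% of all genes without a filter, and 10 did under each of 3 other scalings. The median was -0.09, and none reached 1.5-fold.

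Several of these genes are active in more than 1 liver cell type, and markers of 2 such types were lower in the same array. Of 13 sinusoidal endothelial markers all lay below 0 (median -0.54), and 5 were lower at 1.5-fold. All 13 passed the filter, above which 55.7% of all genes lay below 0 and 2.45% were lower at 1.5-fold. Their summed linear signal in KO was 70.4% of that in WT, and Lyve1 and Tek were 1.77-fold and 1.58-fold lower. Of 16 macrophage and Kupffer cell markers all lay below 0 (median -0.47), and 4 were lower at 1.5-fold. Without a filter 51.1% of all genes lay below 0 and 2.60% were lower at 1.5-fold. Their sum in KO was 70.5% of that in WT, with C1qb 1.75-fold lower and Cd86, which the KO array put under the filter, at least 2.08-fold lower against it. Itgam was the 1 marker of both lists below the filter in the 2 arrays, and the deposited scale has no value of 0.

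Stellate cell markers stood at 88.2% of WT by their sum, with 8 of 10 below 0 (55.7% of all genes above the filter) and Lrat 1.44-fold lower. Des lay the other way, below the filter in WT (3.75) and just at it in KO (4.68). Hepatocyte markers summed to 98.2% of WT with a median of -0.01 (0.01 after subtracting the median of all genes), although Serpina1e was 1.41-fold and Serpina1b 1.12-fold lower; 9 of 9 measured hepatocyte markers were above the filter, as the tissue label says. Sgk1, Dusp1 and Klf9, at 74.7% to 77.4% of WT, lay between the endothelial and macrophage sums and the stellate sum. The part that these cells have in the differences of the 8 genes was not tested, and in whole tissue fewer cells of a type and less RNA per cell cannot be told apart.

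Of cholangiocyte markers Sox9 and Krt23 passed the filter, both 1.12-fold lower. No T, NK, B or plasma cell marker passed it, and Csf3r was the neutrophil marker that did (1.12-fold higher). Of 6 adrenal cortex markers Star passed it, at 4.70 in KO and below it in WT, so these markers were near or below the filter in this liver RNA.

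**Figure D4:**
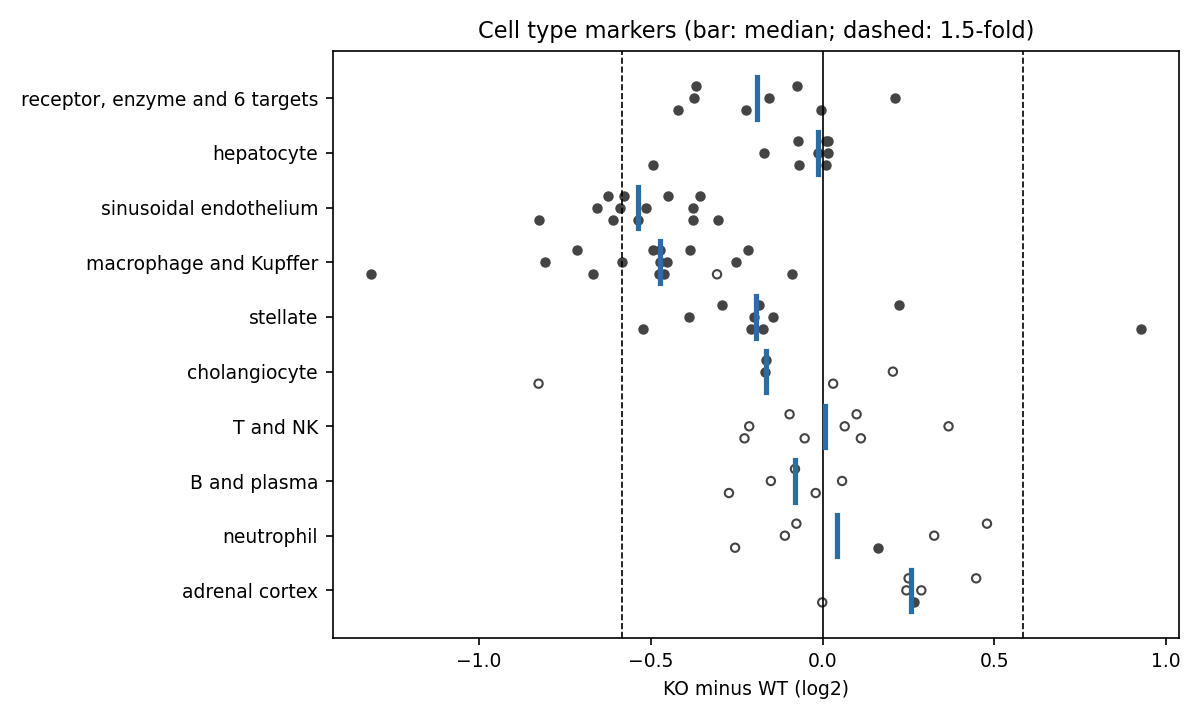
Difference KO minus WT (log2) for every measured marker of 9 cell types and for the 8 genes, with medians as vertical bars and dashed lines at 1.5-fold; filled points passed the intensity filter and open points did not. All endothelial and macrophage markers lie left of 0, and the hepatocyte median of -0.01 lies close to it.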

How the data were processed

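The authors deposited 1 table of log2 values per probe set and array; the method RMA and Affymetrix's software Expression Console, version 1.3.0, are listed in the submitters' processing notes, and no genome build was stated in the sources used here. RMA compresses differences of dim probe sets and would remove a shift common to all transcripts. Per the labels' protocols, 100 ng of total RNA was labelled. The platform annotation gave 1 symbol to 23521 probe sets, several to 1814 and none to 16010; probe sets with 1 symbol were averaged per gene on the log2 scale.

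KO minus WT was counted by size (1.5-fold) in Python 3.11.15 with pandas 2.3.3; with 1 array per genotype no test exists, and the number of arrays limits the precision. A gene below the filter in 1 array has its fold against the filter. The counting code was tested on simulated data with a narrower spread than these arrays and larger changes than any member showed. That test checks the code and not the values reported here. Each list named up to 4 genes (markers 2) above the filter with the largest absolute difference, members aside; no genes were ranked by likeness, since each has 1 difference. The 8 genes and all lists were chosen with earlier results of these data known. Alternatives were 2 other fold sizes, other filters, 3 scalings, the brightest probe set, the mean, and other motif settings.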

Additional observations from a re-analysis of the deposited data

How the results depend on the processing

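Under a second quantile normalization, subtraction of the median difference, a loess fit (span 0.4) and the brightest probe set, no member reached 1.5-fold. Sgk1 ranged from -0.42 to -0.38 on the log2 scale, Dusp1 from -0.37 to -0.34, Klf9 from -0.37 to -0.34, Fkbp5 from -0.22 to -0.18, Errfi1 from -0.19 to -0.13, Tsc22d3 from -0.07 to -0.04 and Hsd11b1 from 0.21 to 0.23, all without a change of sign, whereas Nr3c1 ran from -0.01 to 0.02. At a size of 0.32 on the log2 scale 3 members were lower. With 3 letters allowed to differ, 3 of 7 member genes had a promoter match. The matches lay in 5 of the 15 windows of the 7 genes, beside 12.3% of all windows. Over all genes, 734 were higher and 1151 lower at that smaller size, 15 and 34 at 2-fold, 572 and 576 without a filter, and 18 and 61 with a filter at the 75th percentile. The medians of the gene lists were recomputed as an addition chosen after seeing the data. Those close to 0 changed sign, from -0.01 to 0.01 for receptors and hormone supply with the median subtracted, from -0.01 to 0.02 for FKBP genes after the loess fit and from -0.03 to 0.01 for dual-specificity phosphatases under a second quantile normalization. Leaving out 1 of several probe sets could not be run, since each member has 1. No paired analysis was possible because each genotype has 1 array. Dim genes, with an SD of 0.36 in the dimmest group, are limited most.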

Other observations

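The other promoter windows with an exact response element belonged to Acnat2 and Gm35041. Acnat2, an acyltransferase gene looked up after the search, was at 8.02 in WT and 8.54 in KO, 0.52 higher on the log2 scale, while Sgk1 with the same letters was 0.42 lower (a difference of -0.42). Gm35041 had no probe set with a single symbol.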
